A study of Saccharomyces cerevisiae with 8 samples.

Results

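ComQuad (strain DGY1741) and ODIRA_B (strain DGY1743) are evolved lineages of budding yeast (Saccharomyces cerevisiae) that were both isolated at generation 250, so the comparison between them holds the length of selection constant. It rests on 4 of the 8 ribosome profiling libraries, 2 per strain, chosen by strain alone. Each strain is 1 clone, taken from a population that had been under glutamine limitation, and both share the FY4/S288C background and a GFP and KanMX reporter beside GAP1. In ComQuad, 3 copies of chromosome XI run from within SET3 to TRK2, and a transposon event has added a further copy of GAP1, 4 in all. In ODIRA_B, 3 copies run from VPS1 to ESL2. Outside the amplifications, ComQuad carries a nonsense variant of MCK1 and an in-frame deletion in CDC45, and ODIRA_B carries a variant at YNL017C. The replicate cultures grew in separate chemostats at 30 °C with 800 µM glutamine as the nitrogen source and 2% glucose, for 24 h of continuous flow at a doubling time near 5.8 h. The remaining 4 libraries are those of Trans (DGY1726) and ODIRA_A (DGY1735), isolated at generation 150. They entered the fit to estimate the spread and serve below as a point of reference. The ancestor was not analysed here, so no value says which strain moved away from it.

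GAP1 encodes the general amino acid permease, which imports glutamine among other amino acids, and its amplification is a recurrent outcome of selection under glutamine limitation. Origin-dependent inverted-repeat amplification (ODIRA) gives a triplication whose middle copy is inverted and carries neighbouring genes along with the selected one. Ribosome profiling counts ribosome protected fragments (RPFs), the stretches of mRNA that translating ribosomes shield from nuclease, and so reads mRNA level and translation together.

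The ComQuad libraries held 11459498 and 7763542 RPFs on coding sequence (CDS) and the ODIRA_B libraries 3923583 and 3723082, so low genes are measured least precisely in ODIRA_B. RPF abundance is given in CPM, counts scaled to a library total of 1000000 with TMM factors, and differences are log2 of ComQuad minus ODIRA_B. CPM values are relative, so a strain with more fragments on some genes has fewer on others. STE2, the pheromone receptor of a cells and a marker of MATa cells, was present in all 4 libraries. It had 212 and 215 CPM in ComQuad and 178 and 165 CPM in ODIRA_B. STE3, its counterpart in alpha cells, lay between 9.81 and 16.1 CPM, and the alpha agglutinin gene SAG1 between 2.79 and 3.99 CPM. The alpha factor gene MF(ALPHA)1 was higher than these in ComQuad, at 78.2 and 68.5 CPM, against 4.16 and 4.19 CPM in ODIRA_B.

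Of 5725 genes tested, 567 (9.9%) had higher RPF abundance in ComQuad and 840 (14.7%) had higher RPF abundance in ODIRA_B. The test was the quasi-likelihood F test of edgeR, and genes count as higher where the p-value adjusted by Benjamini-Hochberg (BH) over all genes lay under 0.05. Most of these genes lie far from the GAP1 locus: 566 of 5631 genes outside the CNV bounds (10.1%) were higher in ComQuad and 767 (13.6%) were higher in ODIRA_B. The large differences ran mostly one way. Among the genes outside the bounds that passed the test, 125 were more than 2 log2 units higher in ODIRA_B and 13 were more than 2 log2 units higher in ComQuad. The median gene outside the bounds differed by 0.02. The libraries of the 2 strains did not overlap for 73.5% of the genes tested, so separation of the libraries alone says little about a gene here. Without 1 of the 4 libraries the number of genes passing fell from 1407 to between 661 (without ODIRA_B replicate 1) and 731 (without ODIRA_B replicate 2), with 674 without ComQuad replicate 1 and 729 without ComQuad replicate 2, each with the remaining library assumed to vary like the other strains. A fit of the 4 libraries alone passed 1275 genes as higher in ComQuad and 1369 as higher in ODIRA_B.

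Inside the CNVs, RPF abundance followed copy number (CN) across 3 segments. The left segment, amplified only in ODIRA_B, holds 28 genes of chromosome XI from VPS1 at 440608 to 497358. Of its 26 genes tested, 25 were higher in ODIRA_B and 0 were higher in ComQuad, with a median log2 difference of -1.52 in the fit. Medians taken directly from log2 CPM over the 4 pairs of libraries, which share libraries, ran from -1.49 to -1.41 (SD 0.039). The right segment, from 530946 to the end of ESL2 at 630380 in the R64-1-1 genome, holds 48 genes, of which 47 were tested. Of these, 44 were higher in ODIRA_B and 0 were higher in ComQuad, with a median of -1.58 in the fit. Over the pairs of libraries the median ran from -1.62 to -1.55 (SD 0.034). A ratio of 1 copy to 3 is -1.58 on this scale. In the common core between them, from 500282 to 530484, both strains carry at least 3 copies. There, 1 of 20 genes tested was higher in ComQuad and 3 were higher in ODIRA_B. The median was 0.07 in the fit and ran from -0.11 to 0.15 over the pairs of libraries (SD 0.124). All 73 genes tested in the left and right segments had both ODIRA_B libraries above both ComQuad libraries, where 73.5% of all genes tested do not overlap in either direction. The 8 genes tested among the 10 that follow ESL2 had a median of 0.08, and the 10 that precede VPS1 had a median of 0.03.

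**Figure D1:**
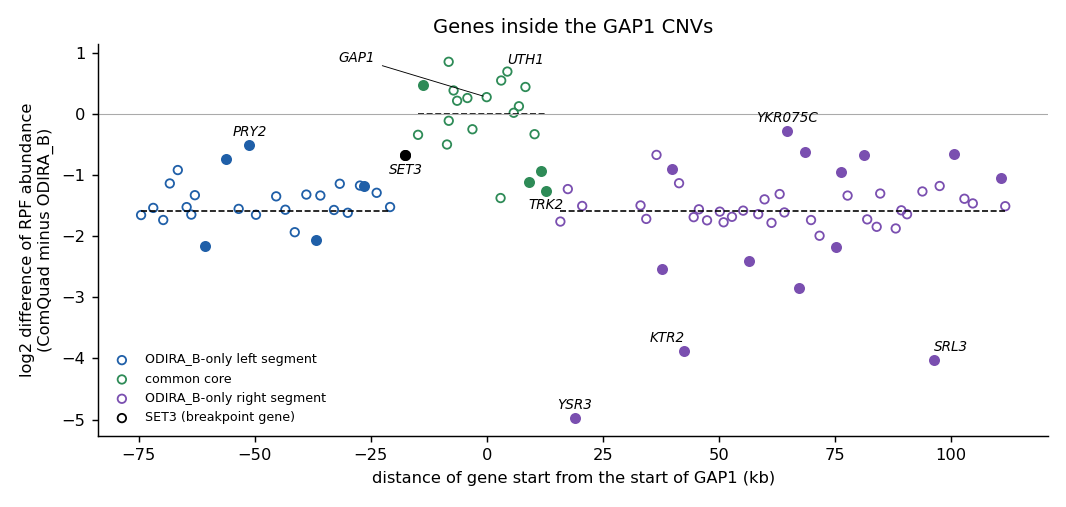
Log2 difference of RPF abundance (ComQuad minus ODIRA_B, vertical axis) of each gene tested inside the CNV bounds, by the distance of its start from the start of GAP1 in kb. Colours mark the 3 segments and SET3, dashed lines the log2 ratio of the copy numbers in each segment (-1.58 to the left and right, 0 in the core, where GAP1 itself has 4 copies against 3), and filled points the genes whose difference departs from that ratio at an adjusted p under 0.05. Most points lie along the dashed lines, whereas YSR3, SRL3 and KTR2 lie far below and YKR075C and PRY2 above.

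The plot of differences by distance from GAP1 shows the 2 amplified flanks as a step of similar height on both sides of the core. GAP1, with 4 copies in ComQuad and 3 in ODIRA_B, had 16145 and 16546 CPM in ComQuad and 13517 and 13485 CPM in ODIRA_B. Both ComQuad libraries lay above both ODIRA_B libraries, and the difference of 0.28 (standard error 0.13) did not pass the test (edgeR, BH adjusted p = 0.15). It passed in the fit of the 4 libraries alone (difference 0.27, adjusted p = 0.031). DAL80, a GATA repressor of nitrogen-regulated genes that lies in the core, had 981 and 921 CPM in ComQuad and 1046 and 1009 CPM in ODIRA_B (difference -0.11, adjusted p = 0.63).

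The genes at the edges were examined in turn. VPS1, which encodes a dynamin-like GTPase of vacuolar sorting, had 378 and 342 CPM in ComQuad and 1100 and 1165 CPM in ODIRA_B. ESL2, the last amplified gene of ODIRA_B, had 142 and 140 CPM against 398 and 403 CPM. PCK1, the gluconeogenic enzyme encoded just beyond it, is single-copy in both strains. It had 31.0 and 29.4 CPM against 83.3 and 73.5 CPM (difference -1.37, standard error 0.20, edgeR BH adjusted p = 0.00072). Both strains were below Trans and ODIRA_A, at 332 to 1238 CPM. The study counts PCK1 among its CNV-amplified genes and bounds the ODIRA_A triplication by ALY1 and SIR1. The levels of Trans and ODIRA_A were not corrected for copy number. SET3, a subunit of a histone deacetylase complex, is cut by the left ComQuad breakpoint. It had 129 and 142 CPM in ComQuad and 220 and 214 CPM in ODIRA_B, with no overlap (difference -0.68, adjusted p = 0.0031), and did not pass without ComQuad replicate 1 (-0.61, adjusted p = 0.054). TRK2, a potassium transporter and the last gene of the ComQuad triplication, had 29.3 and 50.6 CPM against 96.0 and 93.6 CPM (difference -1.26, standard error 0.25, adjusted p = 0.0041). In the fit of the 4 libraries alone it did not pass (-1.28, adjusted p = 0.074).

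The junction inside SET3 is the sequence that sets the left edge of the ComQuad core. The study, which predicted such boundaries from Illumina reads, gives it as a contig of 113 bases. Its first 80 bases match the minus strand of chromosome XI from 498246 to 498325 (R64-1-1), and its last 37 match the plus strand from 498318 to 498354. The capitals mark the 4 bases of the contig that both matches share.
ComQuad junction in SET3: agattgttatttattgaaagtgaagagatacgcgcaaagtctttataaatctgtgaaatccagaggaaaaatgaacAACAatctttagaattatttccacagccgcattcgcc
The parts lie on opposite strands of the same stretch of SET3, and their matches to the genome overlap between 498318 and 498325.

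Of the 93 genes inside the bounds with a copy number ratio, 23 (24.7%) departed from it at an adjusted p under 0.05, where 23.5% of all 5725 genes tested passed the same test. This share is close to the background. Relative to the ratio, 11 of the 23 were higher in ComQuad and 12 were higher in ODIRA_B. The largest departures were below the ratio. YSR3, a phosphatase of sphingoid base phosphates, had 14.5 and 11.96 CPM in ComQuad and 375 and 463 CPM in ODIRA_B. Its difference of -4.97 (standard error 0.17) lay 3.39 below the ratio of 1 copy to 3 (departure -3.39, edgeR BH adjusted p = 9.1e-07). Trans and ODIRA_A had 8.48 and 7.18 CPM and 4.21 and 3.93 CPM, so ODIRA_B was far above the other 3 strains. SRL3, a relative of the Start repressor gene WHI5, had 11.3 and 10.96 CPM in ComQuad and 176 and 189 CPM in ODIRA_B (departure -2.44, adjusted p = 3.3e-06). KTR2, a mannosyltransferase of protein glycosylation, had 4.66 and 4.48 CPM against 69.9 and 65.7 CPM (departure -2.30, adjusted p = 0.00012). In all 3 genes the 2 ODIRA_B libraries were well above the other 6.

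ECM4, a glutathione transferase, showed the opposite arrangement of strains. It had 29.4 and 29.9 CPM in ComQuad and 205 and 223 CPM in ODIRA_B (departure -1.27, edgeR BH adjusted p = 0.00013). Trans and ODIRA_A had 189 to 395 CPM, so ComQuad was the strain that stood below in level. ECM4 has 1 copy in ComQuad and lies within the ODIRA_A triplication of ALY1 to SIR1. The levels of Trans and ODIRA_A were not corrected for copy number. GLG1, the glycogenin that primes glycogen, had 5.24 and 7.23 CPM in ComQuad and 40.2 and 31.0 CPM in ODIRA_B (departure -0.95, adjusted p = 0.017). MET1, of siroheme synthesis in sulfate reduction, had 53.9 and 62.8 CPM against 315 and 303 CPM (departure -0.82, adjusted p = 0.00085). MTD1, a one-carbon enzyme of purine synthesis, and FOX2, the multifunctional enzyme of peroxisomal beta-oxidation, also lay below the ratio, with departures of -0.60 and -0.58.

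Of the genes above the ratio, MSA2, a coactivator of transcription at the G1/S transition, had 166 and 139 CPM in ComQuad and 237 and 236 CPM in ODIRA_B (departure 0.96, edgeR BH adjusted p = 0.00083). DAD2, of the kinetochore Dam1 complex, had 54.7 and 55.6 CPM against 83.3 and 92.2 CPM (departure 0.91, adjusted p = 0.005). TOF2, which recruits condensin to ribosomal DNA, had 69.5 and 60.04 CPM against 104 and 113 CPM (departure 0.84, adjusted p = 0.0021). In each, both ComQuad libraries were below both ODIRA_B libraries, but by less than the copy number ratio. The differences themselves were -0.63 for MSA2, -0.67 for DAD2 and -0.74 for TOF2, and they did not pass without ComQuad replicate 2 (adjusted p = 0.10, 0.11 and 0.057). That of MSA2 did not pass without either ODIRA_B library (0.064 and 0.060) and that of DAD2 without any 1 of the 4 libraries (0.084 to 0.15). PRY2, a secreted sterol-binding protein, had a departure of 1.07, PTR2, the transporter of di- and tripeptides, one of 0.93, and YKR075C, a relative of the glucose-responsive regulator gene REG1, one of 1.31 (adjusted p = 0.00087). YKR075C had 159 and 123 CPM in ComQuad and 168 and 175 CPM in ODIRA_B, although it has 1 copy in the former and 3 in the latter. TIF1, which encodes the translation factor eIF4A, also lay above the ratio (departure 0.69), but 90.9% of its 28-base windows occur more than once in the genome. TIF2, its single-copy paralog, had a similar difference (-0.80). How shared reads were counted is not given, and whether the value of TIF1 mixes amplified and unamplified reads was not tested. Within the core, PET10, a protein of lipid droplets, had 1528 and 1503 CPM in ComQuad and 3298 and 3242 CPM in ODIRA_B (difference -1.11, adjusted p = 0.00015) at equal copy number. FMP46, a mitochondrial protein, was also lower in ComQuad (-0.94, adjusted p = 0.0011), whereas SPO14, a phospholipase D, was higher there (0.47, adjusted p = 0.022, which did not pass without any 1 of the 4 libraries, at 0.069 to 0.20).

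The genes with variants were examined next. MCK1, a GSK-3 family kinase that carries the nonsense variant in ComQuad, had 92.3 and 111 CPM in ComQuad and 176 and 170 CPM in ODIRA_B (difference -0.77, standard error 0.12, edgeR BH adjusted p = 0.0011). All 6 libraries without the variant lay between 170 and 176 CPM. CDC45, a subunit of the replicative helicase with the in-frame deletion in ComQuad, had 47.6 and 42.0 CPM against 20.3 and 26.6 CPM (difference 0.94, adjusted p = 0.0041), with no overlap. It did not pass without ComQuad replicate 1 (0.84, adjusted p = 0.050) or without ODIRA_B replicate 1 (0.76, adjusted p = 0.064). YNL017C was at or below 0.743 CPM in every library and was not tested.

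**Figure D2:**
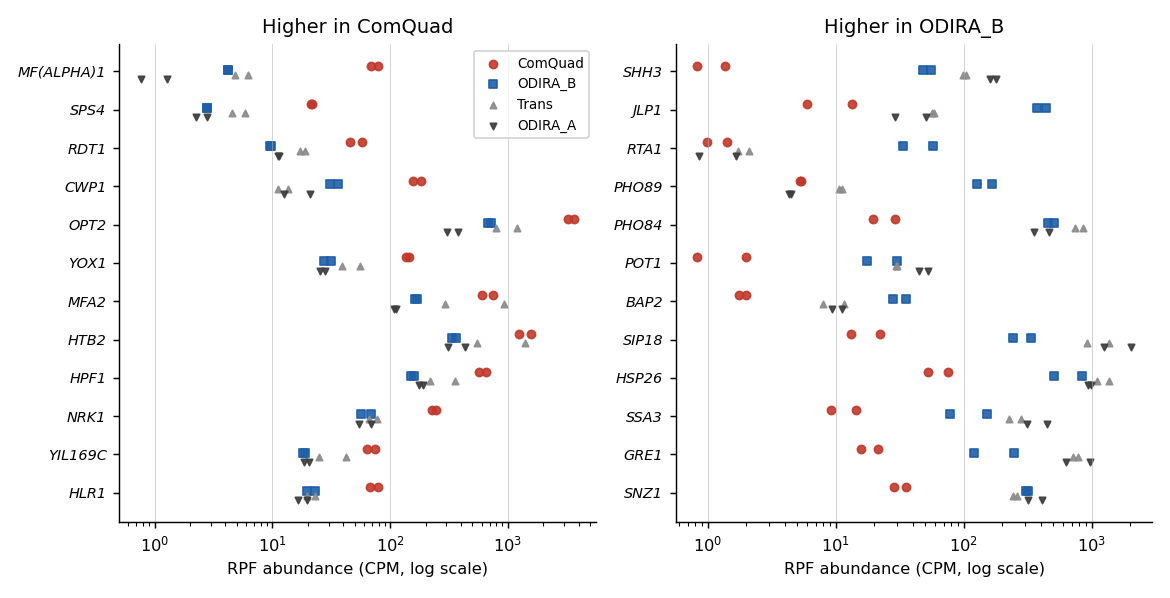
RPF abundance in CPM on a log scale (horizontal axis) of single genes in each library, with 1 symbol per library and the 4 strains in different symbols. Left, the 12 genes that were highest in ComQuad relative to ODIRA_B by the naming rule. Right, 12 genes higher in ODIRA_B that were picked for display and are not the 12 of the rule. On the left the ComQuad points lie to the right of the other strains except where Trans overlaps them (HTB2 and MFA2). On the right ComQuad lies to the left of ODIRA_B, with fitted differences of more than 3 log2 units, although single libraries can lie closer.

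Outside the CNVs, the 12 largest differences toward ComQuad that the naming rule takes belonged to genes of varied function, as the plot of single genes by library shows. MF(ALPHA)1, which encodes alpha factor, had 78.2 and 68.5 CPM in ComQuad and 4.16 and 4.19 CPM in ODIRA_B (difference 4.13, standard error 0.24, edgeR BH adjusted p = 1.8e-06). It is a gene of alpha cells, and the receptor and agglutinin genes of alpha cells did not pass the test (STE3 -0.35, adjusted p = 0.39, and SAG1 0.31, adjusted p = 0.67). MFA2, which encodes a-factor, had 755 and 605 CPM against 161 and 169 CPM (difference 2.04, adjusted p = 0.020). Without ComQuad replicate 1, ODIRA_B replicate 1 or ODIRA_B replicate 2 it did not pass (1.87 to 2.08, adjusted p 0.074 to 0.089), and Trans, at 290 and 931 CPM, spanned the ComQuad values. Of the 28-base windows of MF(ALPHA)1, 22.9% recur in the genome. Whether they recur within the gene or elsewhere was not examined, so part of its signal may be uncertain.

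OPT2, an oligopeptide transporter, was the most abundant of these genes, at 3666 and 3218 CPM in ComQuad and 678 and 722 CPM in ODIRA_B (difference 2.30, standard error 0.20, edgeR BH adjusted p = 1.7e-05). NRK1, a nicotinamide riboside kinase, had 247 and 225 CPM against 56.3 and 69.0 CPM (1.91, adjusted p = 1.5e-05). SPS4, a gene known from sporulation, had 21.5 and 21.9 CPM against 2.78 and 2.79 CPM (2.95, adjusted p = 5.5e-05). ComQuad was above all 6 other libraries in each. The remaining genes named by the rule were RDT1, CWP1, YOX1, HTB2, HPF1, YIL169C and HLR1, with differences from 1.77 for HLR1 to 2.44 for RDT1. HPF1 and YIL169C encode similar wall mannoproteins, and 23.6% and 27.6% of their 28-base windows recur.

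Most histone genes were higher in ComQuad. Of 11 tested, 10 were higher in ComQuad (background 10.1%) and 0 were higher in ODIRA_B, and the median difference was 1.39 against 0.02 over all genes outside the bounds. The summed abundance of the histone genes was 16810 and 15399 CPM in ComQuad and 6202 and 6421 CPM in ODIRA_B. The range over Trans and ODIRA_A was 5670 to 8213 CPM, so ComQuad was the strain that stood apart. HTA1, an H2A gene, had 1406 and 1272 CPM in ComQuad and 512 and 511 CPM in ODIRA_B (difference 1.39, standard error 0.13, edgeR BH adjusted p = 2.2e-05). HTB1, an H2B gene, had 2536 and 2336 CPM against 724 and 808 CPM (1.67, adjusted p = 0.00021), and HTZ1, the variant H2A.Z, had 130 and 115 CPM against 67.4 and 73.5 CPM (0.80, adjusted p = 0.0027). The linker histone HHO1 did not pass (0.34, adjusted p = 0.10), but passed without either Trans library (0.017 and 0.018). The paired copies of H3 and of H4 share sequence (26.6% and 45.6% of their windows), so the division of reads within a pair is uncertain, whereas the sum is not affected by it.

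Genes of DNA replication were more often higher in ComQuad. Of 43 tested, 19 (44.2%, background 10.1%) were higher in ComQuad and 5 (11.6%, background 13.6%) were higher in ODIRA_B, with a median of 0.38. POL1, the catalytic subunit of polymerase alpha, had 94.8 and 95.3 CPM in ComQuad and 48.6 and 44.7 CPM in ODIRA_B (1.03, edgeR BH adjusted p = 0.00053). RNR1, the large subunit of ribonucleotide reductase, had 759 and 671 CPM against 343 and 378 CPM (0.99, adjusted p = 0.00079). POL30, the sliding clamp PCNA, had 232 and 207 CPM against 121 and 121 CPM (0.86, adjusted p = 0.00081). The small-subunit genes RNR2 and RNR4 were lower in ComQuad, at 1427 and 1325 CPM against 2008 and 1973 CPM for RNR2 (-0.53, adjusted p = 0.039) and 949 and 824 CPM against 1436 and 1371 CPM for RNR4 (-0.66, adjusted p = 0.0067). RNR2 did not pass without any 1 of the 6 libraries of ComQuad, ODIRA_B and ODIRA_A (adjusted p 0.055 to 0.21), and RNR4 did not pass without ComQuad replicate 2 (0.090) or ODIRA_B replicate 1 (0.071). With 1 of the 4 compared libraries left out, 7 to 12 members of the list were higher in ComQuad and 0 to 3 were higher in ODIRA_B.

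A list of 40 genes of the G1/S transition was drawn up after the leading genes had been seen and is therefore no independent evidence. It had 33 members higher in ComQuad (82.5%, background 10.1%) and 0 higher in ODIRA_B, with a median of 0.96. With 1 library of the 2 strains left out, 24 to 26 were higher in ComQuad. YOX1, a repressor of early cell cycle promoters, had 145 and 138 CPM in ComQuad and 27.2 and 31.6 CPM in ODIRA_B (2.27, standard error 0.18, edgeR BH adjusted p = 9.7e-06). CLB6, an S-phase cyclin, had 28.4 and 24.8 CPM against 8.88 and 7.83 CPM (1.67, adjusted p = 0.00032). MCD1, the kleisin subunit of cohesin, had 144 and 127 CPM against 39.97 and 55.3 CPM (1.51, adjusted p = 7e-05), and PCL1, a cyclin of Pho85, had 407 and 339 CPM against 134 and 146 CPM (1.42, adjusted p = 2.5e-05). No library of ODIRA_B reached ComQuad in any of the 4 genes, where 73.5% of all genes tested do not overlap in either direction. SWI4, the DNA-binding subunit of the SBF transcription factor, was also higher in ComQuad (0.99, adjusted p = 0.00098), as was NRM1, the corepressor of MBF targets (1.55, adjusted p = 4.3e-05). The cyclin genes CLN1 (1.11) and CLB5 (1.07) and SWE1, a kinase that restrains mitotic entry (1.32), passed in the same direction. Of 26 genes of the G2/M transition, also listed after the data were seen, 7 were higher in ComQuad and 0 were higher in ODIRA_B (median 0.37), with 2 or 3 higher in ComQuad when 1 of the 4 libraries was left out. Among them the mitotic cyclin gene CLB2 had 77.8 and 63.9 CPM against 29.97 and 38.01 CPM (1.06, adjusted p = 0.0012). In cultures of dividing cells, a larger share of cells in a phase and more fragments per cell in that phase cannot be told apart.

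The hexamer ACGCGT, the core site of the G1/S factor MBF, was more frequent upstream of the genes higher in ComQuad. In windows from 250 bases before to 50 bases after the start codon, read on both strands, 9.72% of 566 such genes held it, against 1.74% of 746 genes higher in ODIRA_B and 3.16% of 5704 genes tested. The site was added to the search after the genes had been seen. The stretches below (R64-1-1, 5′ to 3′ on the gene's strand) are those of the genes with the most matches, with ACGCGT in capitals. They belong to IRR1, a cohesin subunit (chromosome IX, 308017 to 308106), RLF2, a subunit of chromatin assembly factor 1 (chromosome XVI, 594226 to 594315), and POL1 (chromosome XIV, 429851 to 429940).
IRR1: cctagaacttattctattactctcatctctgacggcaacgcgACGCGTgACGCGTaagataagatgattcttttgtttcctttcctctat
RLF2: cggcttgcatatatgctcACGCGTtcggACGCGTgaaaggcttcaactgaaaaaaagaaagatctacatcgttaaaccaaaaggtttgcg
POL1: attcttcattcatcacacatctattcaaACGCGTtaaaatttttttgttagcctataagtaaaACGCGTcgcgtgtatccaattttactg
Each stretch holds 2 matches, in IRR1 separated by a single base. IRR1 had 124 and 139 CPM in ComQuad and 60.2 and 66.5 CPM in ODIRA_B, and the differences were 1.05 for IRR1, 1.04 for RLF2 and 1.03 for POL1 (edgeR, BH adjusted p = 0.0002, 0.00082 and 0.00053). A match is a run of letters in a window and not evidence of binding.

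Cell wall genes were split unevenly. Of 48 genes of the wall and of daughter-cell separation, 18 (37.5%, background 10.1%) were higher in ComQuad. Another 8 (16.7%, background 13.6%) were higher in ODIRA_B, and the median was 0.40. CCW12, a major mannoprotein of the wall, had 12512 and 10555 CPM in ComQuad and 4609 and 5332 CPM in ODIRA_B (1.21, edgeR BH adjusted p = 0.0023). CWP1, another mannoprotein, had 184 and 157 CPM against 35.8 and 30.7 CPM (2.36, adjusted p = 2.6e-05), TIP1, a mannoprotein of the same kind, had a difference of 1.29, and SRL1, a wall protein, had 702 and 565 CPM against 180 and 231 CPM (1.63, adjusted p = 0.00097). The wall genes higher in ODIRA_B include genes that respond to stress. SED1, a structural mannoprotein of resting cells, had 1268 and 1101 CPM in ComQuad and 3530 and 4346 CPM in ODIRA_B (-1.73, adjusted p = 0.0042), and YGP1, a secreted glycoprotein induced by starvation, had 67.0 and 90.6 CPM against 565 and 468 CPM (-2.72, adjusted p = 4.8e-06). With 1 of the 4 libraries left out, 9 to 12 of the 48 genes were higher in ComQuad and 5 or 6 were higher in ODIRA_B.

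The wall genes bound by the RNA-binding protein Ssd1 were examined one by one. SSD1 itself had 232 and 251 CPM in ComQuad and 340 and 362 CPM in ODIRA_B (-0.54, edgeR BH adjusted p = 0.022), and did not pass without any 1 of the 4 libraries (adjusted p 0.089 to 0.17). Among its targets, SUN4, of septum separation, had 229 and 223 CPM against 99.6 and 92.8 CPM (1.23, adjusted p = 0.00011), and SRL1 passed as given above. UTH1, which lies in the core at equal copy number, had 1284 and 1312 CPM against 785 and 820 CPM without passing (0.69, adjusted p = 0.11). The chitinase gene CTS1 (0.70, adjusted p = 0.12) and the glucanase-like gene SCW10 (0.76, adjusted p = 0.067) did not pass either. The libraries of the 2 strains did not overlap in any of these targets, which also holds for 73.5% of all genes tested. With DESeq2 the last 3 targets passed (adjusted p = 0.022 for UTH1, 0.027 for CTS1 and 0.011 for SCW10). In edgeR, UTH1 passed without either ODIRA_A library (adjusted p = 0.0098 and 0.01), and CTS1 and SCW10 passed without either Trans library (0.00064 and 0.00065 for CTS1, 0.00016 and 0.00017 for SCW10), the libraries left out being of strains other than the pair compared.

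Iron acquisition genes were more often higher in ComQuad. FET3, the multicopper oxidase of iron uptake, had 882 and 825 CPM in ComQuad and 279 and 343 CPM in ODIRA_B (1.46, edgeR BH adjusted p = 0.0037). It did not pass without either Trans library (adjusted p 0.052 and 0.053). ARN1, a siderophore transporter, had 54.0 and 39.1 CPM against 15.5 and 15.4 CPM (1.596, adjusted p = 0.0018). Of 28 genes of the iron regulon tested, 7 were higher in ComQuad and 3 were higher in ODIRA_B, with 4 to 7 and 1 or 2 when 1 of the 4 libraries was left out. ENB1, a transporter of enterobactin, was among the latter (-2.11, adjusted p = 0.0016).

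Ribosome biogenesis factors differed less. Of 134 tested, 14 (10.4%) were higher in ComQuad, close to the background of 10.1%, and 3 were higher in ODIRA_B, with a median of 0.14. NOP58, a core protein of box C/D snoRNPs, had 220 and 193 CPM in ComQuad and 105 and 99.8 CPM in ODIRA_B (1.01, edgeR BH adjusted p = 0.001). In 7 of the 14 genes only ODIRA_B lay outside the range of the 4 Trans and ODIRA_A libraries, below it, and in 6 both strains lay outside it on the same side. Without 1 of the 4 libraries 1 to 4 of them were higher in ComQuad. Cytosolic ribosomal protein genes were nearly level: 5 of 136 were higher in ComQuad, 7 were higher in ODIRA_B and the median was -0.08. Without 1 of the 4 libraries 0 or 1 were higher in ComQuad and 0 to 4 in ODIRA_B.

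**Figure D3:**
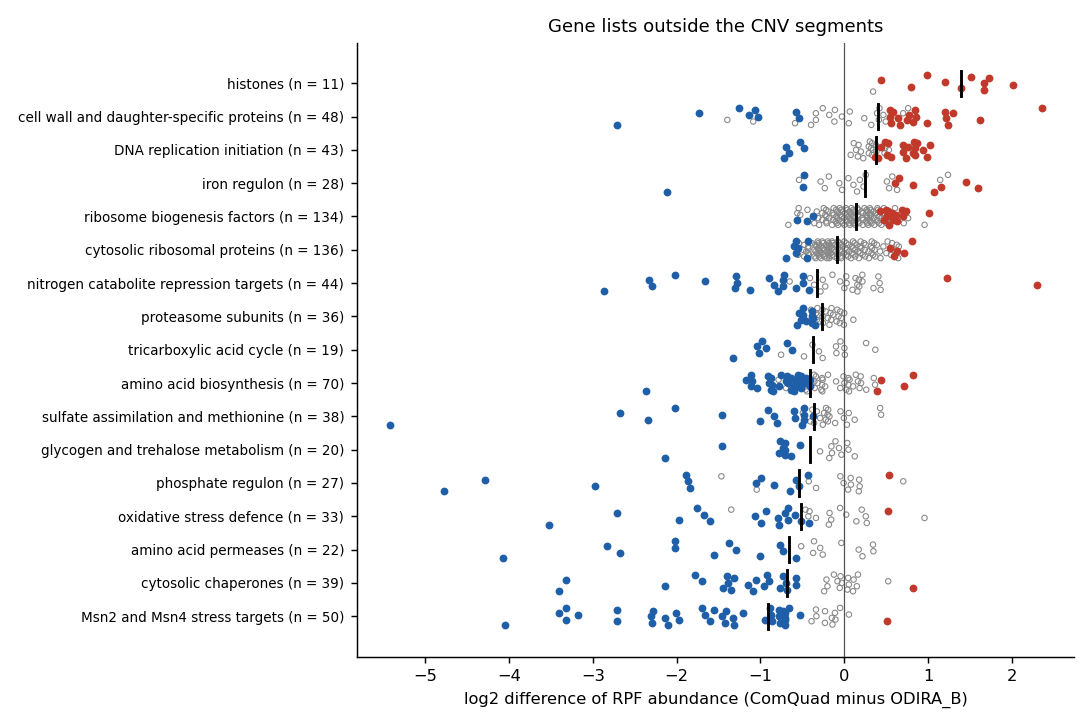
Log2 difference of RPF abundance (ComQuad minus ODIRA_B, horizontal axis) of each gene tested in 17 gene lists outside the CNV bounds, 1 list per line with the number of genes tested. Filled points passed an adjusted p of 0.05 (red higher in ComQuad, blue higher in ODIRA_B), open points did not, and black bars are medians, which run from 1.39 for histones to -0.91 for targets of Msn2 and Msn4.

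In the plot of the gene lists, the median farthest toward ODIRA_B was that of the targets of Msn2 and Msn4, the transcription factors of the general stress response. Of 50 tested, 38 were higher in ODIRA_B (background 13.6%), 1 was higher in ComQuad, and the median difference was -0.91. Their summed abundance was 12571 and 12604 CPM in ComQuad and 24049 and 21618 CPM in ODIRA_B. Trans and ODIRA_A had still more, between 33442 and 38521 CPM. In 27 of the 38 genes both strains lay outside the range of the 4 Trans and ODIRA_A libraries on the same side, in 7 only ComQuad did, and in 4 the strains lay outside it on opposite sides. SIP18, a hydrophilin of desiccation tolerance, had 13.1 and 22.3 CPM in ComQuad and 337 and 241 CPM in ODIRA_B (-4.05, standard error 0.36, edgeR BH adjusted p = 3.6e-05). CTT1, the cytosolic catalase, had 66.8 and 79.1 CPM against 549 and 408 CPM (-2.72, adjusted p = 4.8e-06). DDR2, a small stress protein, had 336 and 376 CPM against 1582 and 1482 CPM (-2.10, adjusted p = 8.4e-06). HSP12, an abundant membrane-associated stress protein, had 1424 and 1662 CPM against 4322 and 3331 CPM (-1.31, adjusted p = 0.00032). ComQuad was below every other library in all 4 genes. The count changed little, with 35 to 37 members higher in ODIRA_B when 1 of the 4 libraries was left out.

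The stress response element AGGGG, read on both strands of the same windows, was present in 35.8% of the 746 genes higher in ODIRA_B, 17.1% of the 566 genes higher in ComQuad and 21.8% of the 5704 genes tested. The stretches with the most matches are shown with the element in capitals (CCCCT is its other strand). They belong to ZWF1, which opens the pentose phosphate pathway (chromosome XIV, 197985 to 198074), to YDR034W-B, a small tail-anchored protein (chromosome IV, 521163 to 521252), and to DDR2 (chromosome XV, 231916 to 232005).
ZWF1: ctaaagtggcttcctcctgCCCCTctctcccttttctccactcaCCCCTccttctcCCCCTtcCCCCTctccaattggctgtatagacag
YDR034W-B: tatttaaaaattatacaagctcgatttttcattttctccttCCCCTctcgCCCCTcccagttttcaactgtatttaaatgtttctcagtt
DDR2: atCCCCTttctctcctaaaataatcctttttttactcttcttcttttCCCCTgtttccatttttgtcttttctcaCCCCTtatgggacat
They hold 4, 2 and 3 matches, all read on the other strand. ZWF1 had 216 and 212 CPM in ComQuad and 329 and 338 CPM in ODIRA_B (-0.64, edgeR BH adjusted p = 0.0028). YDR034W-B had 5.90 and 6.35 CPM against 54.1 and 72.1 CPM (-3.37, adjusted p = 4.1e-05).

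Chaperone genes past the threshold were mostly higher in ODIRA_B (56.4% of those tested, background 13.6%), with 2.56% higher in ComQuad (background 10.1%). Of 39 cytosolic chaperone genes, 22 were higher in ODIRA_B and 1 was higher in ComQuad (median -0.69), and 17 to 20 were higher in ODIRA_B without 1 of the 4 libraries. HSP26, a small heat shock protein, had 52.1 and 74.6 CPM in ComQuad and 838 and 503 CPM in ODIRA_B (-3.41, edgeR BH adjusted p = 9.7e-06). HSP104, the disaggregase, had 411 and 427 CPM against 1539 and 1351 CPM (-1.79, adjusted p = 2.5e-05). SSA3, a stress-inducible Hsp70, had 9.15 and 14.3 CPM against 153 and 78.0 CPM (-3.32, adjusted p = 0.00017). ComQuad was lowest of the 4 strains in all 3, and ODIRA_B was in turn below Trans and ODIRA_A. In 18 of the 22 genes both strains lay outside the range of Trans and ODIRA_A on the same side, and in 3 only ComQuad did. The summed chaperone abundance was 12375 and 13110 CPM in ComQuad, 26885 and 22762 CPM in ODIRA_B and between 35032 and 39407 CPM in the remaining libraries.

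**Figure D4:**
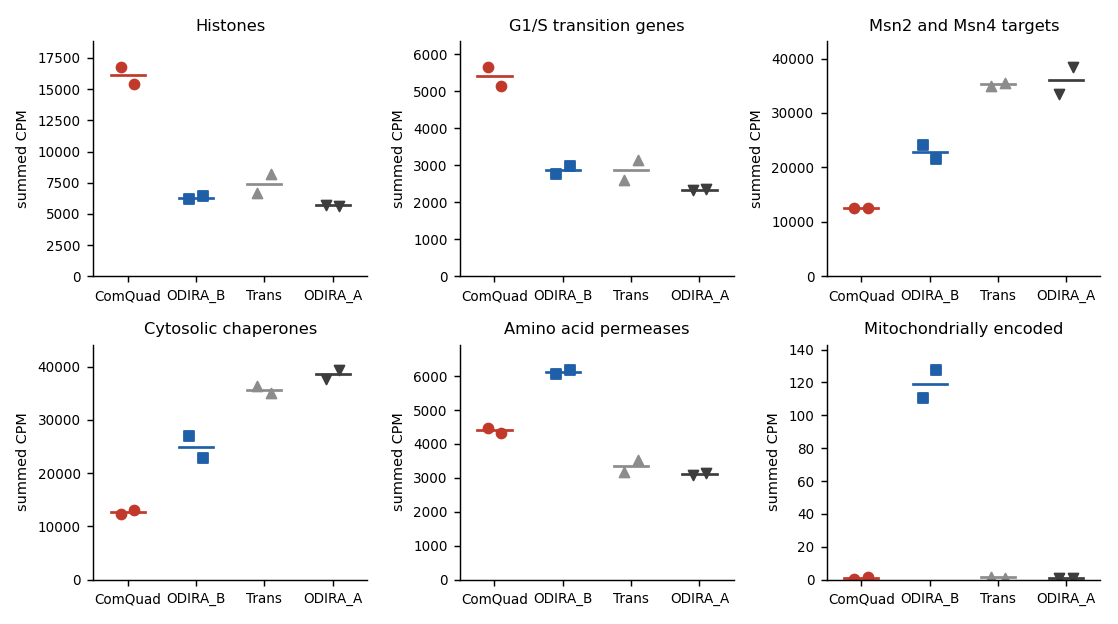
Summed RPF abundance in CPM (vertical axis, from 0) of 6 gene lists in each library, with 1 symbol per library and a line at the mean of each strain. ComQuad is highest for histones and G1/S genes and lowest for the stress targets and chaperones, and ODIRA_B is highest for amino acid permeases (6066 and 6187 CPM) and mitochondrially encoded proteins (110 and 128 CPM).

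Reserve carbohydrates, oxidative stress and the pentose phosphate pathway were taken next. Of 20 genes of glycogen and trehalose metabolism, 10 were higher in ODIRA_B and 0 were higher in ComQuad (median -0.41), among them the phosphoglucomutase gene PGM2, with 70.1 and 65.8 CPM in ComQuad and 324 and 273 CPM in ODIRA_B (-2.13, edgeR BH adjusted p = 3e-06). Of 33 oxidative stress genes, 17 were higher in ODIRA_B and 1 was higher in ComQuad (median -0.52). Of 11 genes of the pentose phosphate pathway, a list added after the data were seen, 7 were higher in ODIRA_B and 0 were higher in ComQuad. TKL2, the minor transketolase, had 6.57 and 11.1 CPM in ComQuad and 184 and 146 CPM in ODIRA_B (-4.26, standard error 0.26, adjusted p = 3.2e-06), and GND2, the minor 6-phosphogluconate dehydrogenase, had 10.5 and 16.7 CPM against 187 and 149 CPM (-3.65, adjusted p = 4.5e-06). Trans and ODIRA_A had 308 to 475 CPM of TKL2, above both strains compared. SOL4, a lactonase of the pathway, was also lower in ComQuad (-2.82, adjusted p = 4.4e-06). YBR116C, also among the most different genes (-4.47), overlaps TKL2 on the same strand, so the counting cannot separate them. With 1 of the 4 libraries left out, 11 to 13 of the oxidative stress genes and 6 to 8 of the glycogen and trehalose genes were higher in ODIRA_B.

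Medians of the tricarboxylic acid cycle and respiration were closer to 0. Of 19 genes of the cycle, 7 were higher in ODIRA_B and 0 were higher in ComQuad (median -0.38). ACO1, aconitase, had 250 and 257 CPM in ComQuad and 645 and 628 CPM in ODIRA_B (-1.33, edgeR BH adjusted p = 2.2e-05), and IDH1, of the NAD-dependent isocitrate dehydrogenase, had 94.0 and 90.2 CPM against 188 and 186 CPM (-1.02, adjusted p = 0.00011). For the nuclear genes of the respiratory chain and ATP synthase, 11 of 44 were higher in ODIRA_B and 0 were higher in ComQuad (median -0.21), with 4 to 6 when 1 of the 4 libraries was left out. SHH3, a relative of a succinate dehydrogenase subunit, led the nuclear genes chosen for size of difference, with 0.831 and 1.37 CPM in ComQuad and 54.95 and 47.8 CPM in ODIRA_B (-5.59, standard error 0.22, adjusted p = 1.6e-07). Trans and ODIRA_A had 99.3 to 178 CPM of SHH3, so ComQuad was the strain near 0. POT1, the thiolase of beta-oxidation, had a like pattern, with 0.831 and 1.99 CPM against 30.3 and 17.6 CPM (-4.17, adjusted p = 2.1e-05).

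Besides GAP1, the other amino acid permease genes were compared. Of 22 permease genes outside the bounds, 12 were higher in ODIRA_B (background 13.6%) and 0 were higher in ComQuad, with a median of -0.66. BAP2, a permease of branched-chain amino acids, had 1.75 and 1.99 CPM in ComQuad and 27.8 and 35.2 CPM in ODIRA_B (-4.07, standard error 0.30, edgeR BH adjusted p = 6.4e-06). MUP1, the high-affinity methionine permease, had 72.1 and 69.4 CPM against 424 and 478 CPM (-2.67, adjusted p = 8.7e-07). AGP1, a broad-range permease, had 8.81 and 14.4 CPM against 42.7 and 50.03 CPM (-2.02, adjusted p = 0.0003). In 6 of the 12 genes the strains lay outside the range of Trans and ODIRA_A on opposite sides, in 3 on the same side, and in 3 only ODIRA_B lay outside it. The summed permease abundance was 4482 and 4335 CPM in ComQuad and 6066 and 6187 CPM in ODIRA_B, and it lay between 3093 and 3527 CPM in the remaining libraries, so both strains of generation 250 were above both strains of generation 150. Without 1 of the 4 libraries 9 or 10 permease genes were higher in ODIRA_B.

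Targets of nitrogen catabolite repression, which are read when preferred nitrogen sources run short, were mixed. Of 44 outside the bounds, 19 (43.2%, background 13.6%) were higher in ODIRA_B and 2 (4.55%, background 10.1%) were higher in ComQuad (median -0.32). DUR3, the urea transporter, had 41.7 and 47.8 CPM in ComQuad and 241 and 198 CPM in ODIRA_B (-2.29, edgeR BH adjusted p = 4e-06), and DAL4, the allantoin permease, had 5.24 and 3.49 CPM against 32.7 and 32.7 CPM (-2.87, adjusted p = 2.1e-05). The 2 higher in ComQuad were OPT2 and DAL5, the allantoate permease (1.23). MEP2, the high-affinity ammonium transporter and an abundant member, had 4508 and 4593 CPM against 4388 and 4116 CPM (0.10, adjusted p = 0.67). Summed over the list, ComQuad had 33160 and 31200 CPM and ODIRA_B 30201 and 29943 CPM, so the sum and the median of this list differ in sign. OPT2 and DAL5 (5831 and 5039 CPM against 2297 and 2332 CPM) are among its abundant members.

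Genes of amino acid and purine synthesis were tested as 2 lists. Their shares higher in ODIRA_B were 44.3% and 37.0% (background 13.6%), and those higher in ComQuad 5.71% and 0% (background 10.1%). Of 70 amino acid synthesis genes, 31 were higher in ODIRA_B and 4 were higher in ComQuad (median -0.41), with 14 to 18 higher in ODIRA_B without 1 of the 4 libraries. LEU4, which opens leucine synthesis, had 236 and 239 CPM in ComQuad and 550 and 519 CPM in ODIRA_B (-1.17, edgeR BH adjusted p = 8.1e-05), and HOM3, aspartate kinase, had 125 and 124 CPM against 278 and 261 CPM (-1.11, adjusted p = 0.0006). Of 27 purine synthesis genes, 10 were higher in ODIRA_B and 0 were higher in ComQuad (median -0.28), and 5 to 10 without 1 of the 4 libraries. ADE8, a formyltransferase of that pathway, had 27.4 and 29.0 CPM against 77.7 and 72.4 CPM (-1.41, adjusted p = 0.00011). Of 14 genes of the Ehrlich pathway and of the regulator Aro80, listed after the data were seen, 7 were higher in ODIRA_B and 0 were higher in ComQuad (median -0.59), and 4 without any 1 of the 4 libraries. ARO10, a decarboxylase of aromatic amino acid breakdown in that list, had 15.3 and 12.7 CPM in ComQuad and 191 and 253 CPM in ODIRA_B (-3.97, adjusted p = 1.2e-06). Trans and ODIRA_A had 9.82 to 18.6 CPM of ARO10, so here ODIRA_B was the strain that stood apart.

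TGACTC, the core site of the amino acid regulator Gcn4, was found on either strand in 12.2% of the windows of genes higher in ODIRA_B, 4.77% of those higher in ComQuad and 8.38% of all 5704. The stretches with the most matches among these genes, with the site (or GAGTCA, its other strand) in capitals, belong to SNO1, of vitamin B6 synthesis (chromosome XIII, 458090 to 458179), and ADE8 (chromosome IV, 1288989 to 1289078).
SNO1: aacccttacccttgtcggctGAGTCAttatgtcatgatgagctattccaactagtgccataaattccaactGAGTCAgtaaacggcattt
ADE8: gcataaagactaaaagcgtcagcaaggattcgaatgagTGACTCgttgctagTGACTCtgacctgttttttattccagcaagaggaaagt
Each holds 2 matches. SNO1 had 5.24 and 4.48 CPM in ComQuad and 31.6 and 35.2 CPM in ODIRA_B (-2.76, edgeR BH adjusted p = 6.7e-06), and its neighbour SNZ1, which acts in the same synthesis, had 35.7 and 28.3 CPM against 307 and 319 CPM (-3.28, adjusted p = 8.7e-07). The other motifs searched were near their genome-wide shares: GATAAG, the GATA site of nitrogen regulation, was in 16.6% of the windows of genes higher in ComQuad, 15.7% of those higher in ODIRA_B and 14.8% of all, and CCAAT was in 44.5%, 42.0% and 44.3%. GATGAG was in 19.8%, 19.0% and 19.9%, in the same order. For CACGTG the shares were 2.65%, 3.22% and 3.09%. For GAANNTTC they were 12%, 10.3% and 12%.

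Sulfur and phosphate genes held some of the widest differences. Of the sulfate and phosphate lists, 42.1% and 48.1% were higher in ODIRA_B (background 13.6%) and 0% and 3.7% in ComQuad (background 10.1%). JLP1, which releases sulfite from sulfonates, had 5.99 and 13.5 CPM in ComQuad and 371 and 437 CPM in ODIRA_B (-5.43, standard error 0.37, edgeR BH adjusted p = 9.7e-06). PHO84, the high-affinity phosphate transporter, had 29.3 and 19.6 CPM against 509 and 452 CPM (-4.29, standard error 0.22, adjusted p = 8.7e-07). PHO89, the sodium-coupled phosphate transporter, had 5.32 and 5.23 CPM against 126 and 165 CPM (-4.78, standard error 0.19, adjusted p = 1.6e-07). The arrangement of strains differed among them: ComQuad stood alone for PHO84, for which Trans and ODIRA_A had 354 to 846 CPM, and ODIRA_B stood alone for PHO89, for which they had 4.35 to 11.2 CPM. Of 38 genes of sulfate assimilation and methionine, 16 were higher in ODIRA_B and 0 were higher in ComQuad (median -0.37), and 8 to 10 without 1 of the 4 libraries. In the phosphate regulon, 13 of 27 were higher in ODIRA_B and 1 was higher in ComQuad (median -0.54). RTA1, a membrane protein related to lipid-translocating exporters, belongs to neither list and had 1.41 and 0.997 CPM in ComQuad and 33.3 and 57.9 CPM in ODIRA_B (-5.19, adjusted p = 6.8e-06), with the remaining libraries between 0.849 and 2.12 CPM.

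The next lists were mixed. Genes of the proteasome, thiamine and vitamin B6 synthesis, hexose transport and autophagy were more often higher in ODIRA_B than the background of 13.6%. The other lists of this paragraph were below that background. Of 36 genes of the proteasome, 11 were higher in ODIRA_B, 0 were higher in ComQuad and 25 did not pass, with a median of -0.26. The differences past the threshold ran up to -0.57, that of RPN4, the transcription factor of proteasome genes, and without 1 of the 4 libraries 0 to 2 members passed. Of 23 genes of thiamine and vitamin B6 synthesis, 9 were higher in ODIRA_B and 1 was higher in ComQuad, and 4 to 7 were higher in ODIRA_B without 1 of the 4 libraries. Hexose transporters had 5 of 14 higher in ODIRA_B and 0 higher in ComQuad, with 2 or 3 without 1 of the 4 libraries, and among them was HXT5 (201 and 221 CPM against 741 and 709 CPM, -1.78, edgeR BH adjusted p = 4.8e-06). Autophagy genes had 12 of 30 higher in ODIRA_B and 1 higher in ComQuad, including ATG8, the ubiquitin-like protein of the autophagosome (154 and 143 CPM against 284 and 270 CPM, -0.89, adjusted p = 0.00038), and 6 or 7 without 1 of the 4 libraries. Translation factors (4 higher in each strain of 41), aminoacyl-tRNA synthetases (1 in each of 19) and mitochondrial ribosomal proteins (2 higher in ComQuad and 1 higher in ODIRA_B of 70) had medians from 0.03 to 0.11. None of 6 flocculin and seripauperin genes tested passed in edgeR.

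Among the smaller metabolic lists, 6 of 15 genes of the glyoxylate cycle and gluconeogenesis (median -0.45), 6 of 27 of glycolysis and fermentation (-0.15), 5 of 18 of beta-oxidation (-0.37), 4 of 11 vacuolar proteases (-0.23), 6 of 19 of zinc and copper homeostasis (-0.39), 4 of 16 of NAD synthesis (-0.03) and 3 of 32 of ergosterol synthesis (-0.16) were higher in ODIRA_B, against a background of 13.6%. In these lists 0 to 2 genes were higher in ComQuad, the direction with a background of 10.1%. Without 1 of the 4 libraries the counts higher in ODIRA_B were 5 for the glyoxylate cycle, 2 for glycolysis, 2 to 4 for beta-oxidation, 2 for the proteases, 2 to 4 for zinc and copper, 2 for NAD and 0 or 1 for ergosterol. PRB1, the vacuolar protease B, had 1365 and 1433 CPM in ComQuad and 3458 and 3465 CPM in ODIRA_B (-1.31, edgeR BH adjusted p = 6.9e-05), and Trans and ODIRA_A were near ComQuad at 1454 to 1916 CPM. PDC6, the minor pyruvate decarboxylase, had 317 and 271 CPM against 1581 and 1481 CPM (-2.38, adjusted p = 1.9e-06), and Trans and ODIRA_A lay above both at 2059 to 2514 CPM. Of 20 subunits of RNA polymerases I and III, 4 were higher in ComQuad and 0 were higher in ODIRA_B (median 0.37), and 0 to 2 without 1 of the 4 libraries.

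Genes of mating and meiosis moved in both directions. Of 7 genes of MATa cells, MFA1 and MFA2 were higher in ComQuad, and BAR1, the protease that degrades alpha factor, and AGA2, a subunit of a-agglutinin, were higher in ODIRA_B. BAR1 had 19.9 and 15.3 CPM in ComQuad and 36.9 and 30.5 CPM in ODIRA_B (-0.93, edgeR BH adjusted p = 0.0091). It did not pass without ComQuad replicate 2 (-0.76, adjusted p = 0.091) or ODIRA_B replicate 1 (-0.78, adjusted p = 0.097). MFA1 did not pass without any 1 of the 6 libraries of ComQuad, ODIRA_B and Trans (adjusted p 0.067 to 0.21), and AGA2 did not pass without ComQuad replicate 2 or any 1 library of ODIRA_B or ODIRA_A (0.052 to 0.15). Among 5 genes of alpha cells, 1 was higher in ComQuad, MF(ALPHA)1. Of 16 genes of meiosis and sporulation, 2 (12.5%, background 10.1%) were higher in ComQuad and 5 (31.2%, background 13.6%) were higher in ODIRA_B (median -0.35). SGA1, a glucoamylase of sporulation, had 4.24 and 6.98 CPM in ComQuad and 42.2 and 35.5 CPM in ODIRA_B (-2.83, adjusted p = 1.2e-05), with Trans and ODIRA_A at the level of ODIRA_B, between 31.1 and 47.8 CPM.

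Fragments from the mitochondrial genome came mostly from ODIRA_B. The 28 mitochondrially encoded genes summed to 36 and 46 RPFs in ComQuad and 1317 and 1618 RPFs in ODIRA_B, although the ODIRA_B libraries are the smallest, and all 21 genes tested were higher in ODIRA_B. COX1, a subunit of cytochrome c oxidase, had 0 and 0.249 CPM in ComQuad and 32.7 and 36.9 CPM in ODIRA_B. With 2 fragments in ComQuad and 250 in ODIRA_B, the ratio was 349 with a 95% exact interval from 95.6 to 2900 that covers counting error only. COB, of complex III, had 3 fragments against 222, a ratio of 207 (69.8 to 1010). ATP8, of the ATP synthase, had 0 fragments in ComQuad and 27 in ODIRA_B, at least 25.1-fold higher in ODIRA_B when 3 counts over the 2 ComQuad libraries are taken as the floor. The reading frames inside the introns of COX1 and COB (AI1, AI2, AI4, AI5_ALPHA and BI4) overlap their host genes on the same strand and cannot be counted as separate observations. The fragments of mitochondrial rRNA moved with these genes, at 0.873 and 4.77 per 1000000 RPFs on CDS in ComQuad and 564 and 109 in ODIRA_B, and their part in the result was not tested.

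**Figure D5:**
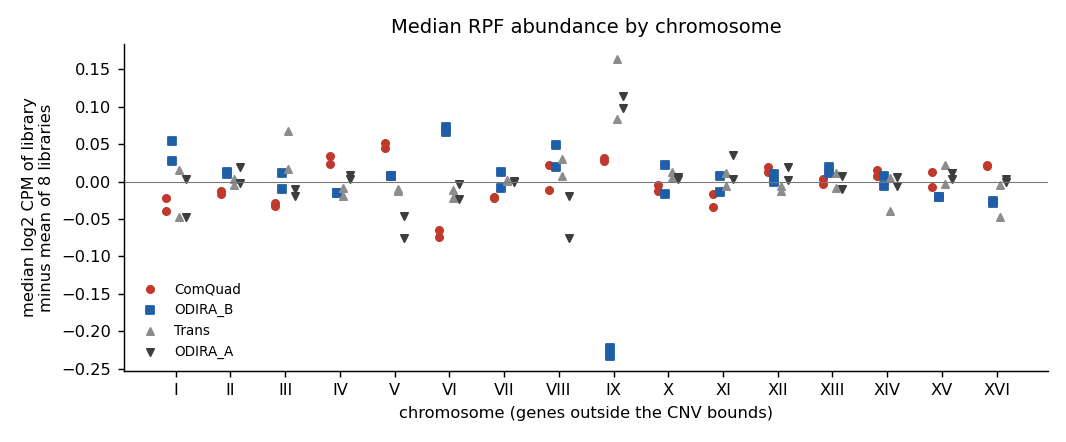
Median over the genes of each chromosome (horizontal axis, genes outside the CNV bounds) of the log2 CPM in a library minus the mean of the 8 libraries (vertical axis), with 1 symbol per library. On chromosome IX the ODIRA_B libraries lie at -0.22 and -0.23, while those of the other strains lie between 0.03 and 0.16, and on the other 15 nuclear chromosomes all medians are within 0.1 of 0. The mitochondrial genome is not drawn.

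Chromosome IX stood apart in the plot of medians by chromosome, which was drawn without a prior list. Of its 207 genes tested, 54 (26.1%, background 10.1%) were higher in ComQuad and 18 (8.7%, background 13.6%) were higher in ODIRA_B, and the median difference was 0.29, with 0.256 to 0.301 over the 4 pairs of libraries. The medians of the other 15 nuclear chromosomes lay between -0.11 and 0.06. Relative to the mean of the 8 libraries, the 2 ODIRA_B libraries were at -0.22 and -0.23 on chromosome IX, the ComQuad libraries at 0.03 and 0.03, and those of Trans and ODIRA_A between 0.08 and 0.16. In 4 consecutive groups of 51 or 52 genes along the chromosome the median ran from 0.21 to 0.35, so the difference was spread over its length. The copy number of chromosome IX was not examined here.

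The called genes outside the bounds were set against the range of the 4 Trans and ODIRA_A libraries, a strain counting as outside where both of its libraries lay above or both below all 4. Of the 566 genes higher in ComQuad, only ComQuad lay outside in 267 (47.2%), only ODIRA_B in 104 (18.4%), both on opposite sides in 69 (12.2%), both on the same side in 97 (17.1%) and neither in 29 (5.12%). Of the 767 genes higher in ODIRA_B, only ComQuad lay outside in 240 (31.3%), only ODIRA_B in 181 (23.6%), both on opposite sides in 111 (14.5%), both on the same side in 210 (27.4%) and neither in 25 (3.26%). By list, only ComQuad lay outside in 25 of 33 G1/S genes, 13 of 19 replication genes, 11 of 18 wall genes and 5 of 10 histone genes higher in ComQuad, and in 5 of 9 thiamine and vitamin B6 genes higher in ODIRA_B. In most of the remaining genes of these lists both strains lay outside on the same side. Only ODIRA_B lay outside in 7 of 8 mitochondrially encoded proteins and 7 of 11 proteasome genes higher in ODIRA_B. The mitochondrially encoded proteins had entered the test essentially through their ODIRA_B counts. Trans and ODIRA_A were isolated earlier and carry other CNVs, so this places the strains side by side and is not a comparison with the ancestor.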

How the data were processed

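The deposited values are raw counts, as whole numbers, of same-strand RPF reads per annotated feature (R64-1-1). Per the labels and the study's methods, the authors trimmed reads with cutadapt, discarded rRNA, tRNA and snRNA sequence, used STAR for alignment and bedtools for counting. The treatment of multi-mapping and duplicate reads is not given in the sources used here. Counts on CDS were summed for 6600 protein-coding genes, and rows of other features stayed out of the tests and library sizes. Libraries held 3723082 to 11459498 RPFs on CDS.

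One fit of all 8 libraries used edgeR 4.0.16 in R 4.3.3 (TMM, robust quasi-likelihood F test, 1 mean per strain) over 5725 genes (10 or more RPFs in 2 or more libraries), with Benjamini-Hochberg adjustment and a threshold of 0.05. A second test added log copy numbers to the offsets. The steps were tested on simulated data. Replicate numbers were not taken as pairs: replicate differences correlated at -0.134 between ComQuad and ODIRA_B, at -0.119 and -0.105 between ComQuad and the other strains, and at 0.124 to 0.171 among ODIRA_B, Trans and ODIRA_A. Since the labels say no more than that the replicates are separate samples and the methods that they grew in separate chemostats, p-values measure the spread between those cultures of 1 clone each.

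The genes named were those at the CNV bounds, those with variants, SSD1 and its targets, the 12 largest differences in each direction (libraries not overlapping, higher strain at 20 CPM or more), the 5 farthest from the copy number ratio each way, and up to 4 per list. A further 36 genes were named after their values were seen. The members, the gene lists and the tests were chosen with earlier results of these data known. The lists for the G1/S and G2/M transitions, the Ehrlich pathway and the pentose phosphate pathway, the motif ACGCGT and the view by chromosome were added after the values were seen. Sequences were read from the R64-1-1 reference, except the junction, which comes from a supplementary table of the study. Alternatives were DESeq2 1.42.0, RLE factors, TMM factors without CNV and mitochondrial genes, other filters, counts on gene features, a fit of 4 libraries, replicate blocks and each library left out. The RNA-seq, mass spectrometry and ancestor were not analysed here.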

Additional observations from a re-analysis of the deposited data

Results flagged for a closer look

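Reads on features other than CDS were outside the comparisons, and each class below exceeded the limit that a count of 0 allows in at least 1 of the 4 libraries. The authors removed rRNA, tRNA and snRNA reads before counting, so these are what remained. The highest library of ComQuad and ODIRA_B held 31996 reads on transposable element genes. Per 1000000 RPFs on CDS these were 2792 and 2791 in ComQuad and 3696 and 4422 in ODIRA_B, with 2378 to 5594 in Trans and ODIRA_A. Reads on ncRNA reached 12959, at 755 and 1669 on that scale in ComQuad and 2244 and 2336 in ODIRA_B. Reads on mitochondrial rRNA reached 2211, in an ODIRA_B library. The remaining classes reached 8474 reads for rRNA (nuclear and mitochondrial together), 2157 for tRNA, 178 for pseudogenes, 113 for snRNA and 100 for snoRNA. ODIRA_B was above ComQuad in rRNA (1744 and 1493 on that scale against 740 and 841) and in tRNA (465 and 579 against 145 and 215). The rRNA values include mitochondrial rRNA, at 564 and 109 in ODIRA_B and 0.873 and 4.77 in ComQuad. The classes were not tested.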

How the results depend on the processing

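No count or median of the comparison reversed under any alternative, and 1 gene did: STE3, which did not pass the test at -0.35, ranged from -0.65 without ODIRA_B replicate 2 to 0.0236 without ODIRA_B replicate 1. In the fit of the 4 libraries alone, 1275 genes were higher in ComQuad and 1369 were higher in ODIRA_B, 48 departed from the copy number ratio and 693 list members passed, against 567, 840, 23 and 399. With 1 library left out, the ranges were 175 to 988 higher in ComQuad, 486 to 1155 higher in ODIRA_B, 12 to 37 departures and 207 to 569 list members, where the high values came without either Trans library and the low ones without 1 library of the 2 strains compared. The median of the left segment ran from -1.52 to -1.45. Of 1896 values of named genes under the other alternatives, 1874 kept their side of the threshold, 8 lost and 14 gained a call. Of 1678 with a library left out, 1504 kept it, 162 lost and 11 gained a call. The replicate number as a block gave 572 and 839 genes, 96.2% of the calls being shared, and the numbers of ComQuad crossed, chosen after seeing the data, 622 and 897. DESeq2 gave 542 and 836. Mitochondrially encoded genes could not be tested without 1 ODIRA_B library or with 10 RPFs required in every library, since the filter removed them. ODIRA_B is the shallowest strain, which limits its genes near 0.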
